A study of Mus musculus with 20 samples.

Results

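The malate-aspartate shuttle genes are Mdh1, Got1, Got2, Slc25a11, Slc25a12 and Slc25a13, and their probe sets were found by the gene symbols of the array platform. The array held 9 probe sets for 5 of the 6 genes, out of 22626 probe sets that are not controls. They were 4 for Mdh1, 2 for Got2 and 1 each for Got1, Slc25a11 and Slc25a13, and Slc25a12 was not analysed here. RNA of skeletal muscle from 20 mice was measured on 20 Affymetrix arrays, 1 per mouse. The mice fell into 4 groups of 5, named by their labels: transgenic trained (TG trained), transgenic untrained (TG untrained), wild-type trained (WT trained) and wild-type untrained (WT untrained) mice. The series title gives the transgene as over-expression of MHC-I and the training as endurance training. The sources used here give neither the muscle nor the sex, age and strain of the mice, nor the transgene's promoter or the training schedule.

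The inner mitochondrial membrane does not let NADH through, so the electrons of NADH made by glycolysis must enter by a shuttle. Cytosolic malate dehydrogenase, Mdh1, passes them to oxaloacetate and forms malate, which Slc25a11 exchanges for oxoglutarate, and Mdh2 regains NADH inside the mitochondrion. The aspartate aminotransferases Got2, inside, and Got1, in the cytosol, return the carbon as aspartate, which leaves through the aspartate-glutamate carriers Slc25a12 and Slc25a13. Muscle, heart, brain and liver use this shuttle. In liver Slc25a13, also called citrin, is the main carrier of aspartate, and in muscle and brain Slc25a12, also called aralar, is.

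The promoters of 4 members are shown because Slc25a11, Got2 and Mdh1 were called higher in trained mice and Got1 was not. Each is the 250 bases before the gene's start in the RefSeq annotation of build GRCm38.p6, on the minus strand, written 5′ to 3′ along the gene. They lie at chr11:70647040-70647289 for Slc25a11, chr8:95888402-95888651 for Got2, chr11:21571935-21572184 for Mdh1 and chr19:43524606-43524855 for Got1. Capitals mark TCGCGAGA in Slc25a11 and CCAAT in Mdh1 and Got1, each in either orientation, and the Got2 promoter has no capitals.
Slc25a11: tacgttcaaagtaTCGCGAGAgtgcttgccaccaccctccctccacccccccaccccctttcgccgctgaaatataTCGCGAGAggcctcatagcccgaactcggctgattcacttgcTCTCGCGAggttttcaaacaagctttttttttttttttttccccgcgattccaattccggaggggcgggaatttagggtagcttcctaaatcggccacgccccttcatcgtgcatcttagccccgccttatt
Got2: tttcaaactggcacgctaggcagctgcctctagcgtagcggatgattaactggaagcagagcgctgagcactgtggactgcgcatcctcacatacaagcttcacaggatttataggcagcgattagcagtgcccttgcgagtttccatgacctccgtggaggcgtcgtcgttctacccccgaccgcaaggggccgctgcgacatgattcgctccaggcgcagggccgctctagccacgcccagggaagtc
Mdh1: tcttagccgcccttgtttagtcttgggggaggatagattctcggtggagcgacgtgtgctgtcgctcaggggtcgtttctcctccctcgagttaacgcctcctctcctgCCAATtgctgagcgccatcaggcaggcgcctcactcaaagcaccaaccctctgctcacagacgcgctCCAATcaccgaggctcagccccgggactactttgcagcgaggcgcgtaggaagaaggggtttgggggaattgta
Got1: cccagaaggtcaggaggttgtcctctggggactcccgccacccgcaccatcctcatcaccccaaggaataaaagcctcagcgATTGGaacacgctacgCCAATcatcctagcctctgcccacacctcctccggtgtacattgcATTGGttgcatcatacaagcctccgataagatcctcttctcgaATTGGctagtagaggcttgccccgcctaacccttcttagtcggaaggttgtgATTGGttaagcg

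The 4 promoters differed in these letters. Slc25a11 held TCGCGAGA at 3 places, whose first bases lie 237 and 174 bases before the start and, in the reverse orientation, nearer to it. That motif was found in 0.858% of 32851 promoters of this length, and 0.0152% held 3 or more. Mdh2, the mitochondrial enzyme of the same reaction as Mdh1, also held 3. Got1 held CCAAT at 5 places, 168, 152, 107, 64 and 12 bases before the start, and Mdh1 at 2 places, the nearer of them 74 bases before it. CCAAT was in 33.8% of the promoters, with 2 or more in 9.91% and 5 or more in 0.195%. Slc25a11 had 1 further CCAAT, left in lower case, at 82 bases. Got2 held none of the 6 motifs searched on both strands, which also included AAGGTCA (4.08% of promoters), CACGTG (6.02%), TGACGTCA (1.55%) and the Nrf1 motif (3.74%). Got1 held 1 AAGGTCA at 245 bases, also in lower case. Matches of one motif that overlap were counted once, and the list of motifs was chosen after the sequences had been looked at. The 3 genes that were higher in trained mice had no motif of these 6 in common. A match of letters is a description and not a binding site.

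The values are intensities as deposited, with array medians between 156.7 and 174.9. Differences are on a log2 scale after adding 66.72, and a probe set was called when its Benjamini-Hochberg adjusted p from limma, over 13576 tested probe sets, was under 0.05. All 9 shuttle probe sets passed the filter on dim ones. Arrays correlated with each other at r between 0.9235 and 0.991, and 2 arrays had the most empty cells: 386 in TG trained mouse TGT-133 and 822 in WT trained mouse wtt-137. The 10 muscle fibre markers (Acta1, Ckm, Mb and others) were bright on every array, with sums between 138732 and 150641. The class I gene H2-K1 was not called higher in the mice labelled transgenic on any of its 4 tested probe sets, where the differences between TG and WT mice, averaged over training, ran from -0.117 to 0.002 log2. The brightest of them averaged 1067 ± 411 in TG trained, 1069 ± 201 in TG untrained, 1222 ± 345 in WT trained and 1102 ± 307 in WT untrained mice (SD, n = 5 each). The sources used here do not give the sequence of the transgene, so TG and WT are used below as the labels give them.

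Training went with higher levels of 3 of the 5 shuttle genes measured: the carrier Slc25a11, the mitochondrial aminotransferase Got2 and the cytosolic dehydrogenase Mdh1. Averaged over both genotypes, the brightest probe sets of these genes were 1.21 to 1.28 times as high in trained as in untrained mice. Got1 and Slc25a13 were not called. Of the 9 probe sets, 5 were called higher and 0 lower, where 2.41% of all tested probe sets were called higher and 2.59% lower (4.99% in either direction). The total of 678 called probe sets moved with single mice, between 279 without TG trained mouse TGT-128 and 1285 without TG untrained mouse TGUT-145. The median difference of the 5 genes was 0.27 log2, against 0.002 over all tested probe sets. The 5 called probe sets read only 3 genes, and the members were chosen with earlier results of these data known. The shares and medians are therefore descriptions and not a test of the shuttle genes as a set. In RNA of whole muscle, a change in the number of cells of a type and a change in RNA per cell cannot be told apart.

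Slc25a11, the carrier that exchanges malate for oxoglutarate, is read by 1 probe set. Its intensity was 3318, 3011, 2652, 3183 and 3293 in TG trained mice, against 2323, 2100, 2741, 2314 and 2602 in TG untrained mice. It was 3022, 2936, 2936, 3009 and 2959 in WT trained mice, against 2058, 2210, 2601, 2328 and 2267 in WT untrained mice. The WT groups did not overlap. In TG mice, trained mouse TGT-133, at 2652, lay below the highest untrained mouse, at 2741. The 5 WT trained mice stood close together, with a coefficient of variation of 1.37%, against 8.69% in WT untrained mice. Averaged over genotypes, Slc25a11 rose by 0.36 ± 0.05 log2 (SE), or 1.28-fold, with limma's adjusted p = 0.00297. This was the 7th smallest p of the 13576.

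Got2, the mitochondrial aspartate aminotransferase, has 2 probe sets. The brighter read 5911, 5351, 5574, 5599 and 6199 in TG trained mice, against 4954, 4976, 4535, 4255 and 5016 in TG untrained mice. It read 5492, 5708, 5935, 5959 and 5605 in WT trained mice, against 4431, 4541, 5334, 5110 and 4391 in WT untrained mice. All 10 trained mice lay above all 10 untrained mice, though narrowly, since the lowest trained value was 5351 and the highest untrained value 5334. Among all tested probe sets, 10 (0.0737%) had every trained mouse above every untrained one. The difference averaged over genotypes was 0.27 ± 0.04 log2 (SE), or 1.21-fold, with limma's adjusted p = 0.00421.

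The dimmer Got2 probe set read 3508, 3219, 2779, 3341 and 3698 in TG trained mice, against 2882, 2482, 2634, 2193 and 2767 in TG untrained mice. It read 3314, 3321, 3148, 3657 and 3552 in WT trained mice, against 2526, 2493, 2793, 2440 and 2578 in WT untrained mice. Its WT groups did not overlap, and in TG mice the lowest trained value, again that of TGT-133, fell below the highest untrained value. It rose by 0.37 ± 0.05 log2 (SE) with training, averaged over genotypes, or 1.29-fold (limma, adjusted p = 0.00297). The 2 Got2 probe sets correlated over the 20 arrays at r = 0.873, and at 0.537 after the group means were taken out.

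Mdh1, the cytosolic malate dehydrogenase, has 4 probe sets. The brightest read 6383, 5765, 5384, 6390 and 6942 in TG trained mice, against 4930, 4810, 4916, 4371 and 5514 in TG untrained mice. It read 6635, 6651, 6313, 7192 and 6330 in WT trained mice, against 4775, 4996, 6063, 5976 and 5423 in WT untrained mice. The WT groups did not overlap, and in TG mice TGT-133 again stood below the highest untrained mouse. Averaged over genotypes, this probe set rose by 0.30 ± 0.05 log2 (SE), or 1.24-fold (limma, adjusted p = 0.00651).

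The other Mdh1 probe sets were less uniform. The second brightest averaged 5197 in TG trained and 4352 in TG untrained mice, and 5593 in WT trained and 4872 in WT untrained mice. Its training difference of 0.23 ± 0.07 log2 passed narrowly (limma, adjusted p = 0.0473), and the call held in 5 of the 20 fits that left out 1 mouse. The third, which correlated with it at r = 0.944, differed by 0.26 ± 0.08 log2 and was not called (adjusted p = 0.0546), but it was in 5 of 11 alternatives and 3 of 20 fits that left out 1 mouse. Both carry the platform's _x_ mark, given to probe sets that may bind other transcripts. The dimmest had group means of 211 in TG trained, 189 in TG untrained, 196 in WT trained (n = 4, since the cell of mouse wtt-137 is empty and was dropped from the fit) and 202 in WT untrained mice. It differed by 0.045 ± 0.042 log2 with training (adjusted p = 0.619), and its correlation with the other 3 lay between -0.327 and 0.045. With group means taken out, that correlation lay between -0.798 and -0.376, so within groups it ran against the other 3. The brightest correlated with the second at 0.439 and with the third at 0.375 after the group means were taken out. Which of the 4 reads the main transcript was not tested.

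**Figure D1:**
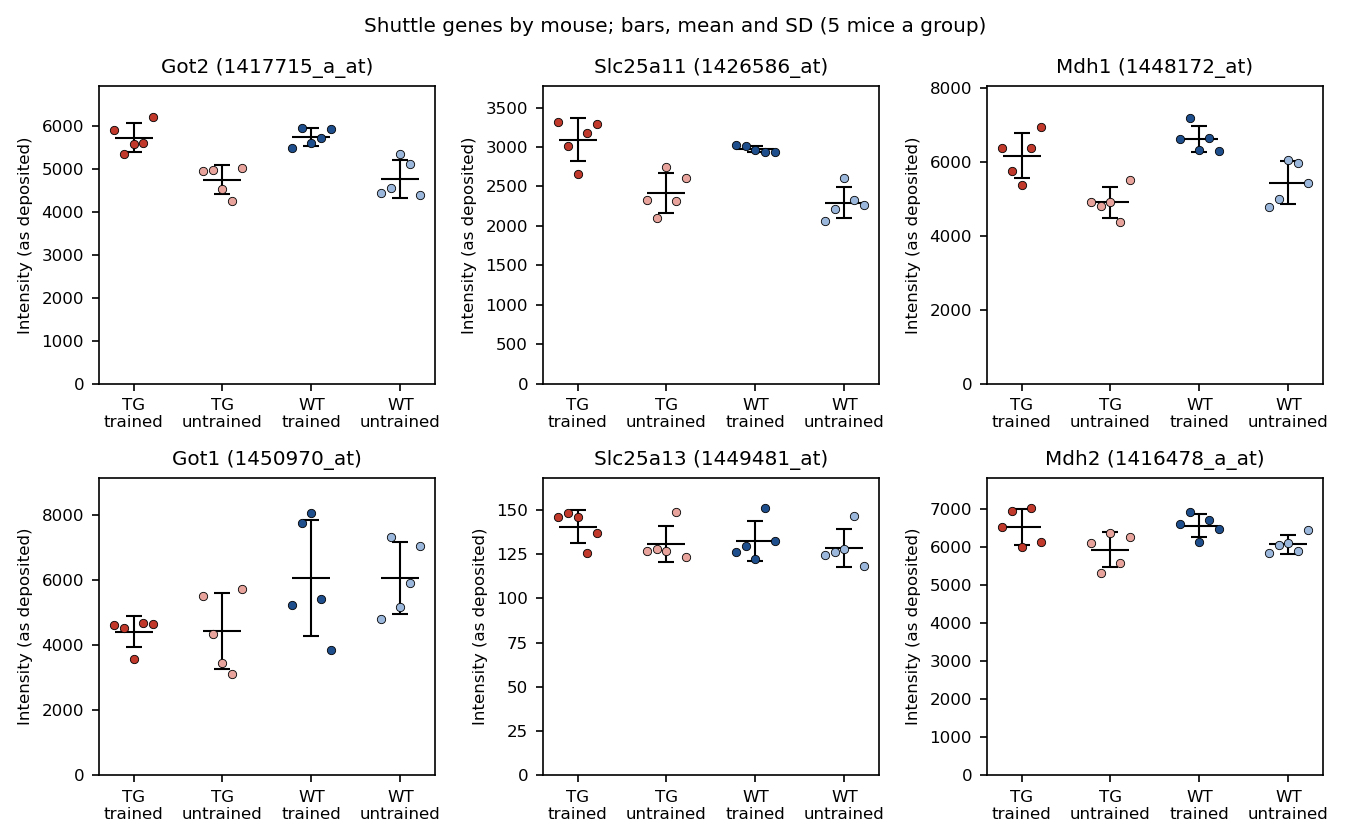
Deposited intensity (linear scale from 0) of the brightest probe set of each shuttle gene and of Mdh2 in each of the 20 mice, by group, TG being the mice labelled transgenic. Points are mice and bars are the mean and SD of 5. For Got2 all 10 trained mice lie above all 10 untrained mice. Slc25a11 and Mdh1 have higher means in both trained groups, and Got1 spreads from 3121 to 8071.

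Got1, the cytosolic aspartate aminotransferase, did not pass the test with training. Its probe set read 4623, 4519, 3553, 4666 and 4649 in TG trained mice, against 5509, 4333, 3449, 3121 and 5708 in TG untrained mice. It read 5220, 5406, 3848, 7752 and 8071 in WT trained mice, against 4808, 7332, 5171, 5919 and 7043 in WT untrained mice. Trained and untrained values overlapped in both genotypes. The difference averaged over genotypes was -0.003 ± 0.135 log2 (SE), with a 95% interval of -0.286 to 0.28 (limma, adjusted p = 0.994). That interval holds the training difference of the brighter Got2 probe set, 0.27, but not those of Mdh1 and Slc25a11, 0.30 and 0.36. The coefficient of variation of Got1 within a group was 10.9% in TG trained, 26.5% in TG untrained, 29.7% in WT trained and 18.4% in WT untrained mice, against 3.56% to 9.06% for Got2.

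Slc25a13, the aspartate-glutamate carrier citrin, was dim. Its probe set read between 125.6 and 148.6 in TG trained, 123.2 and 148.9 in TG untrained, 122.5 and 151.5 in WT trained and 118.2 and 146.9 in WT untrained mice. Its values lay just around the filter on dim probe sets, 126.2 in intensity, so it stood close to the level at which probe sets were left out. The groups overlapped. The training difference averaged over genotypes was 0.049 ± 0.036 log2 (SE), with a 95% interval of -0.026 to 0.124 (limma, adjusted p = 0.492). The added constant shrinks the differences of a gene this dim.

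Within each genotype alone, 0 of the 9 probe sets passed. In TG mice, Slc25a11 differed by 0.35 log2 with adjusted p = 0.0501, Got2 by 0.27 and 0.34 with adjusted p = 0.0529 and 0.0513, and Mdh1 by 0.33 with adjusted p = 0.06 (limma). That comparison called 42 of all tested probe sets (0.309%), with 18 higher (0.133%) and 24 lower (0.177%), and 2362 (17.4%) were under an unadjusted p of 0.05. The count of 42 was 148 with quantile normalization (91 higher and 57 lower), 2467 with array weights, 6 with no filter and 1 with the TG groups fitted alone. With 1 mouse left out it ran from 2 without TGT-128 to 764 without TGUT-145. In WT mice, Slc25a11 differed by 0.37 log2 with adjusted p = 0.165, Got2 by 0.27 and 0.40 with adjusted p = 0.181 and 0.145, and Mdh1 by 0.28 with adjusted p = 0.246. There 0 probe sets of the whole table (0%) were called by limma, against 1069 (7.87%) under an unadjusted p of 0.05. Trained and untrained mice did not overlap for 4 of the 9 probe sets in WT mice (1.83% of all tested, trained higher) and for 1 of 9 in TG mice (1.19%). The calls in TG mice moved with the setting: 3 of the 9 were called without TGT-133, 4 without wtt-137, 4 without TG untrained mouse TGUT-145, 2 without TGUT-146, 2 without WT trained mouse WTT-144 and 1 without WT untrained mouse WTUT-130.

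No difference in the training response of the shuttle genes was called between TG and WT mice. The interaction, the training difference in TG mice minus that in WT mice, was -0.002 log2 for Got2 (95% interval -0.181 to 0.178), -0.02 for Slc25a11 (-0.241 to 0.2) and 0.041 for Mdh1 (-0.184 to 0.266). For Got1 it was 0.058 (-0.508 to 0.623) and for Slc25a13 0.044 (-0.107 to 0.195). All of them had limma's adjusted p of 1, and 0 of 13576 probe sets (0%) were called, with 395 (2.91%) at an unadjusted p under 0.05. The bounds for Got2, Slc25a11 and Mdh1 reach as far from 0 as 0.266, so they do not show that the genotypes responded alike.

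**Figure D2:**
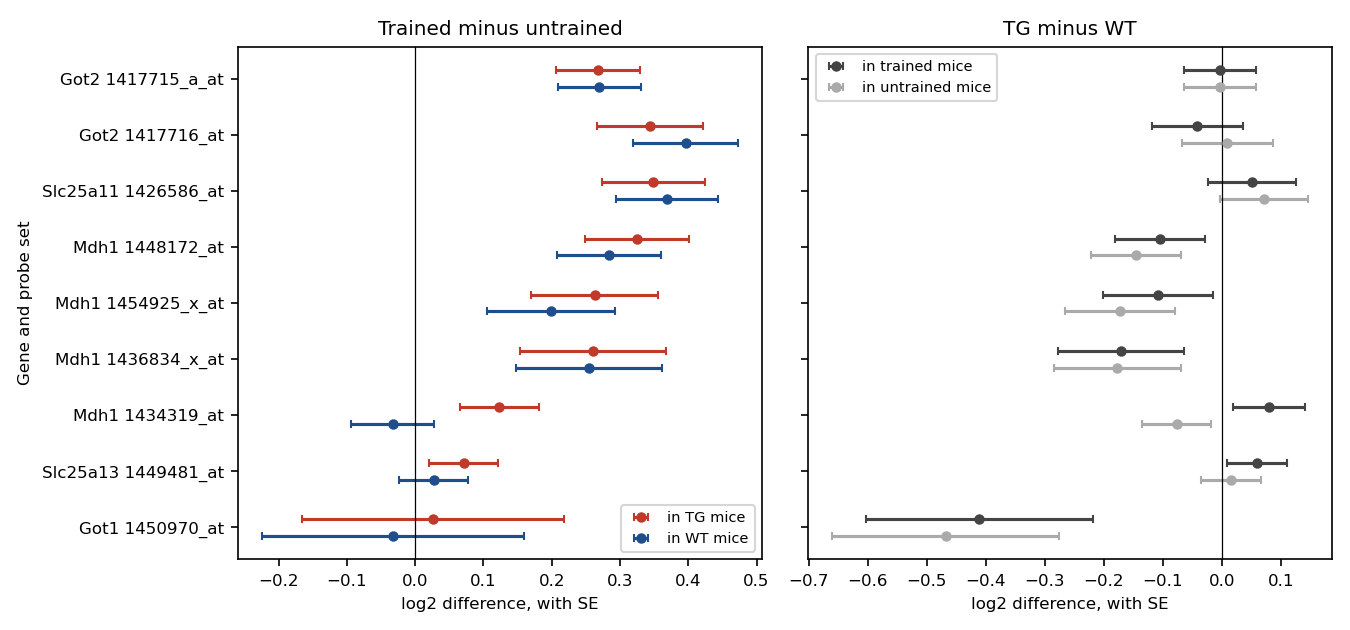
Log2 difference with its SE for each of the 9 shuttle probe sets, trained minus untrained mice at the left (TG above WT) and TG minus WT mice at the right (trained above untrained). At the left, both Got2 probe sets, Slc25a11 and the first of the Mdh1 probe sets (listed from bright to dim) lie between 0.27 and 0.40 in both genotypes, and at the right Got1 is lowest, at -0.41 in trained and -0.47 in untrained mice.

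Between the mice labelled transgenic and the wild-type mice, 0 of the 9 probe sets were called in the comparison averaged over training, where 1.23% of all tested probe sets were (0.324% higher and 0.906% lower). The total of 167 was 79 without WT trained mouse WTT-141 and 525 without wtt-137. Got1 showed the lowest value. It averaged 4402 ± 478 in TG trained mice against 6060 ± 1798 in WT trained mice, and 4424 ± 1171 in TG untrained mice against 6055 ± 1114 in WT untrained mice (SD, n = 5 each). The groups overlapped in both training states. The difference averaged over training was -0.44 ± 0.14 log2 (SE), with a 95% interval of -0.722 to -0.156 and limma's adjusted p = 0.109. It was -0.41 in trained mice (adjusted p = 0.39) and -0.47 in untrained mice (adjusted p = 0.509).

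The Got1 value kept its sign in all 20 fits that left out 1 mouse, between -0.514 and -0.382, and passed the test in 1 of them. Mouse wtt-137 had the lowest Got1 of the WT trained mice, 3848, and the most empty cells of all arrays. Without it the difference was -0.51 log2 and passed the test (limma, adjusted p = 0.029). Without both wtt-137 and TGT-133, the lowest TG trained mouse, it was -0.48 (adjusted p = 0.0486). In the comparisons within one training state, 0.0516% of probe sets were called in trained mice (0% higher) and 0.11% in untrained mice (0.0147% higher and 0.0958% lower), and 0 of the 9 shuttle probe sets in either.

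The other members were nearer to 0 between TG and WT mice. Mdh1 stood at -0.125 log2 on its brightest probe set (95% interval -0.238 to -0.013, adjusted p = 0.239), at -0.141 and -0.174 on the next brightest and at 0.001 on the dimmest. Got2 stood at -0.003 (interval -0.093 to 0.086) and -0.016, Slc25a11 at 0.061 (-0.049 to 0.171) and Slc25a13 at 0.037 (-0.039 to 0.112). For Got2 this interval leaves out a difference of the size seen with training. The Got2 value lay at 0 within its error and changed sign with quantile normalization (0.068), with array weights (0.028), without the 2 arrays with the most empty cells (0.007) and in part of the fits that left out 1 mouse.

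Ratios of 2 genes within an array put the cytosolic and mitochondrial partners side by side, and the pairs were chosen after their values had been seen. The log2 ratio of Got2 over Got1, set against its mean over the 20 arrays, averaged 0.339 ± 0.161 in TG trained, 0.097 ± 0.293 in TG untrained, -0.067 ± 0.447 in WT trained and -0.369 ± 0.333 in WT untrained mice (SD, n = 5 each). It was higher in TG than in WT mice by 0.44 averaged over training, by 0.41 in trained and 0.47 in untrained mice. An exact two-sided permutation test over the 63504 splits within training states gave p = 0.00781, or 0.0156 after adjustment over the 4 ratio tests. In the same comparison Got2 alone stood at -0.003 log2 and Got1 alone at -0.439 (limma, adjusted p = 0.109). The ratio test thus takes up the Got1 difference again, in a pair chosen after viewing, and is no separate evidence for it. The groups overlapped: TG trained mice reached up to 0.599, and WT trained mice ran from -0.562 to 0.575. The same ratio differed by 0.27 with training and did not pass (exact permutation, adjusted p = 0.0791). It passed with the other Got2 probe set (0.37, adjusted p = 0.00848). Of 20 tests that left out 1 mouse, 1 passed, that without WT trained mouse WTT-144 (0.33, adjusted p = 0.0396). Those 20 gave differences between 0.192 and 0.334, and over all alternatives the adjusted p reached 0.229.

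The log2 ratio of Mdh1 over Mdh2, cytosolic over mitochondrial malate dehydrogenase, averaged 0.042 ± 0.168 in TG trained and -0.144 ± 0.103 in TG untrained mice. It averaged 0.137 ± 0.038 in WT trained and -0.035 ± 0.151 in WT untrained mice (SD, n = 5 each). It was higher in trained mice by 0.18 averaged over genotypes, 0.19 in TG and 0.17 in WT mice (exact two-sided permutation test, p = 0.00419, adjusted p = 0.0156). With the other Mdh2 probe set in its place the test did not pass (adjusted p = 0.327). Between TG and WT mice it differed by -0.10 and did not pass (exact permutation, adjusted p = 0.0791). It passed with the second brightest Mdh1 probe set (-0.12, adjusted p = 0.00956). Of 20 tests that left out 1 mouse, 1 passed, that without TG trained mouse TGT-143 (-0.135, adjusted p = 0.0169). Those 20 gave differences between -0.135 and -0.079, and over all alternatives the adjusted p reached 0.811. A ratio within an array shows unequal change and not, by itself, which of the genes changed. Fitted singly, Mdh1 stood at 0.305 log2 with training and was called, and Mdh2 stood at 0.126 and was not. Both values were above 0, and a call for only one of them is no test of their difference.

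**Figure D3:**
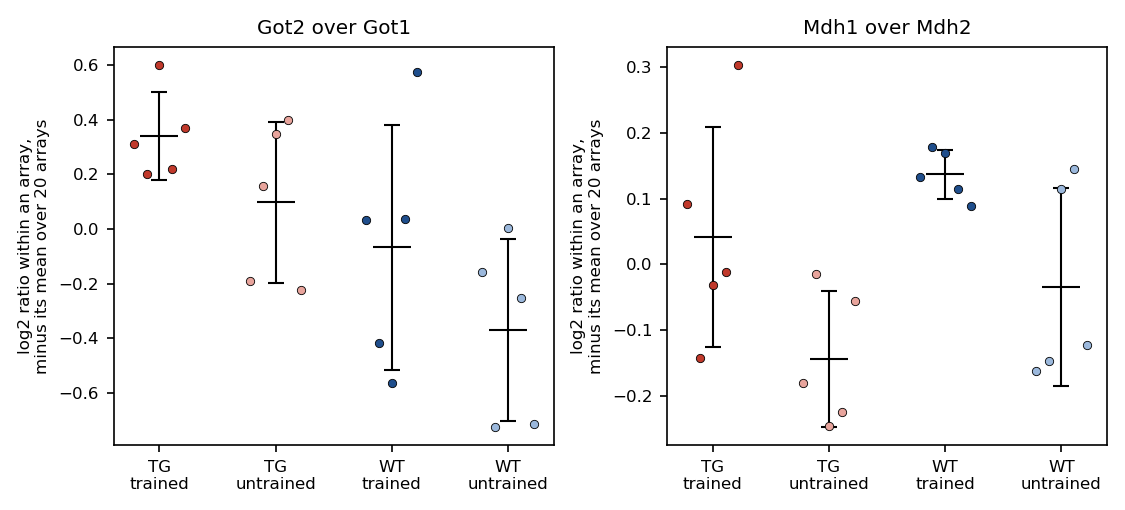
Log2 ratio of the intensities of Got2 over Got1 (left) and Mdh1 over Mdh2 (right) in each of 20 mice, minus the ratio's mean over all arrays; points are mice, bars the mean and SD of 5. Got2 over Got1 is highest in TG trained mice (mean 0.339) and lowest in WT untrained mice (mean -0.369), and Mdh1 over Mdh2 is higher in each trained group than in the untrained group of its genotype.

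Mdh2 itself read 6545, 6959, 6012, 7042 and 6135 in TG trained mice, against 6112, 5313, 6384, 5593 and 6266 in TG untrained mice (its brighter probe set). It read 6606, 6712, 6481, 6936 and 6146 in WT trained mice, against 5850, 6054, 6119, 5901 and 6460 in WT untrained mice. Both genotypes had overlapping groups. The training difference was 0.126 ± 0.04 log2 (SE) and was not called (limma, adjusted p = 0.0707). It was called with quantile normalization (0.133, adjusted p = 0.0475), array weights (0.143, 0.00505) and the Gapdh covariate (0.122, 0.0354). It was also called without TGT-133 (adjusted p = 0.0461), without TGUT-145 (0.0339) and without WTT-144 (0.0419). Its other probe set stood at 0.175 ± 0.096 (adjusted p = 0.318).

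Of 10 further genes listed for the handling of cytosolic NADH and pyruvate, 8 were measured. Mdh2 was counted among them, though it is the shuttle's own enzyme inside the mitochondrion and not another route. Other routes were covered by the glycerol-phosphate shuttle genes Gpd1 and Gpd2 and the lactate dehydrogenases Ldha and Ldhb. The lactate carriers Slc16a1 and Slc16a3 and Mpc1 of the mitochondrial pyruvate carrier were measured as well. With training 0 of the 8 passed in either direction, 5 stood above 0, and the median was 0.065 log2, against 0.269 for the shuttle genes. Between TG and WT mice 0 of 8 passed as well, with a median of -0.016, values from -0.532 to 0.384 and 2 genes above 0. The lactate carrier Slc16a3 had higher means in TG mice. It averaged 1357 in TG trained against 1097 in WT trained mice, and 1558 in TG untrained against 1116 in WT untrained mice. The following 2 genes were named after their values had been seen. Ldhb, the lactate dehydrogenase subunit typical of heart and slow muscle, stood at 0.36 log2 with training (adjusted p = 0.0798) and at -0.42 between TG and WT mice (adjusted p = 0.0764). It was called in 1 of 12 alternatives with training and in 2 of 20 fits that left out 1 mouse between TG and WT mice. The lactate carrier Slc16a1 stood at -0.53 log2 between TG and WT mice (adjusted p = 0.056). It was called in 4 of 13 alternatives, with adjusted p = 0.0482 after quantile normalization, 0.0478 with a filter at the 60th percentile, 0.0186 with array weights and 0.0275 with the Gapdh covariate. Without TGUT-147, wtt-137 or WT untrained mouse WTUT-130 it was called as well (0.0303, 0.0413 and 0.0232).

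Of 20 listed enzymes and carriers of malate, aspartate, glutamate and oxoglutarate outside the shuttle, 14 had a probe set and 13 were tested. With training 1 was called higher and 1 lower, and the median was 0.025 log2. The pair were the alanine aminotransferases, which move amino groups between alanine and glutamate. Gpt, the cytosolic form, averaged 453 ± 24.6 in TG trained and 375 ± 54.4 in TG untrained mice, and 463 ± 44.7 in WT trained and 364 ± 40 in WT untrained mice (SD, n = 5 each). It rose by 0.27 ± 0.06 log2 averaged over genotypes (limma, adjusted p = 0.0163). Gpt2, the mitochondrial form, fell by 0.42 ± 0.10 log2 (limma, adjusted p = 0.0199).

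By genotype, Gpt2 averaged 1856 ± 218 in TG trained mice against 3118 ± 588 in TG untrained mice, and 2395 ± 545 in WT trained mice against 2583 ± 195 in WT untrained mice (SD, n = 5 each). It fell by 0.71 log2 in TG mice (limma, adjusted p = 0.0383) and stood at -0.13 in WT mice (adjusted p = 0.925). The difference between the genotypes, -0.58 ± 0.19 log2, did not pass (adjusted p = 1). The probe sets of both carry the platform's _s_ mark, given to those that may bind several transcripts. For the aminotransferases of aspartate the mitochondrial form rose and the cytosolic form did not pass the test, and for those of alanine the cytosolic form rose and the mitochondrial form fell. Between TG and WT mice 0 of the 13 passed, with a median of -0.002.

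**Figure D4:**
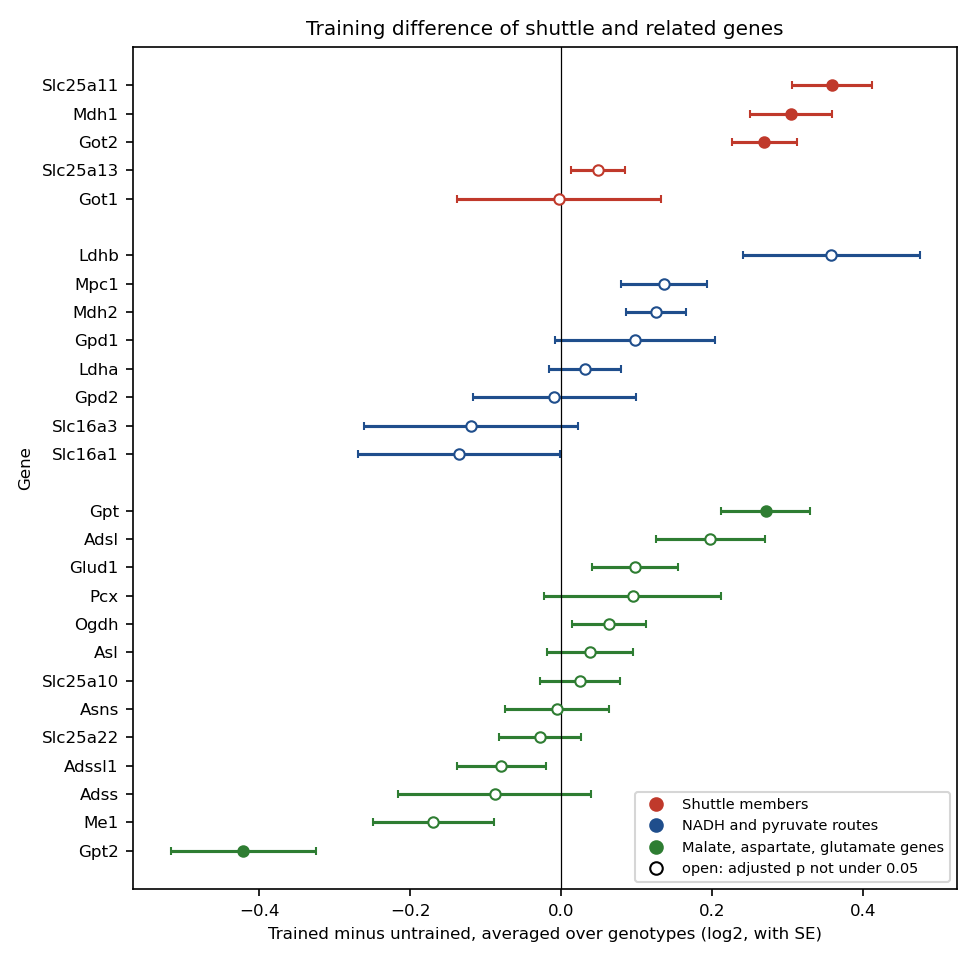
Training difference (trained minus untrained, averaged over genotypes, log2 with SE) of the 5 shuttle genes and of the tested genes of the 2 related lists, by the brightest probe set of each. Filled points passed an adjusted p of 0.05: Slc25a11, Mdh1, Got2 and Gpt are higher and Gpt2 is lower in trained mice.

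Among the members, Mdh1, Got2 and Slc25a11 varied together over the 20 arrays. The correlation of log2 values was 0.877 for Mdh1 with Got2, 0.821 for Got2 with Slc25a11 and 0.81 for Mdh1 with Slc25a11. With group means taken out these were 0.762, 0.371 and 0.728. Got1 correlated with the others at -0.444 to 0.366. These are descriptions, and the points share the arrays and their scaling.

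The genes most like each member over the 20 arrays were taken from the brightest tested probe set of each of 8486 genes. For Slc25a11 they were Sdhaf1 (r = 0.944), Ndufb10 (0.941) and Sdhaf4 (0.933). Sdhaf1 and Sdhaf4 help assemble succinate dehydrogenase, and Ndufb10 is a subunit of respiratory complex I. For Mdh1 they were the carbonic anhydrase Car2 (0.921), the mitochondrial thioredoxin Txn2 (0.898) and the succinate dehydrogenase subunit Sdhb (0.89). For Got2 they were Adamtsl5 (0.914), Nudt8 (0.912) and Tcta (0.883). With group means taken out, the 3 of Slc25a11 stood at 0.813 to 0.921, those of Mdh1 at 0.784 to 0.8 and those of Got2 at 0.704 to 0.787.

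Got1 followed other genes: Las1l (r = 0.899), which acts in ribosomal RNA processing, Pank1 (0.897), a pantothenate kinase of coenzyme A synthesis, and the nucleotidase Nt5c3 (0.892). With group means taken out these stood at 0.86 to 0.929, values that describe mouse-to-mouse variation within groups. For the dim Slc25a13 the nearest were Mettl27 (0.846 over 19 arrays), Apbb1 (0.807) and Slco1a1 (0.796). Spearman's rho and r without the 2 arrays farthest from the member's median lay between 0.739 and 0.949 over these 15 pairs. The pairs were picked for their high r on these same arrays, so all these values are descriptions and not a check of the likeness.

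Markers of other states and cells moved in part with the same comparisons, and their part in the shuttle results was not tested. With training, of the muscle fibre markers only Myh1, a fast myosin, was called, at 0.22 log2 (adjusted p = 0.0303). Mb had higher trained means as well, 10870 against 9514 in TG and 12250 against 10220 in WT mice. Ckm, with group means from 18190 to 18750, stood near the table's highest value of 19078. Whether markers this bright could have read higher was not tested. Of 9 slow fibre markers 0 were called with training, with a median of -0.042. Of 10 genes of the glucocorticoid and fasting response 2 were lower averaged over genotypes, Cdkn1a (-1.13) and Klf9 (-0.41), with 0 of 10 above 0 and a median of -0.484 log2. In TG mice alone the median of these genes was -0.839 with 0 above 0, and in WT mice alone -0.235 with 3 above 0. Within either genotype 0 of these genes were called. Their summed intensity ran from 21201 to 29047 in TG trained and 26590 to 57446 in TG untrained mice, and from 23194 to 52040 in WT trained and 41044 to 54946 in WT untrained mice. Of 2 tested clock activators Arntl was lower (-0.84), and of 5 fibroblast genes Col3a1 was higher (1.02). Of the 5 adipocyte, 5 macrophage, 5 endothelial, 2 erythrocyte, 3 liver and 7 clock output genes tested, and the 1 cardiac gene, 0 were called with training.

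Between TG and WT mice 7 of 9 slow fibre markers were called lower, with a median of -1.265 log2. Their summed intensity ran from 6459 to 8471 in TG trained mice against 11215 to 20251 in WT trained mice, and from 6370 to 10123 in TG untrained mice against 9103 to 23101 in WT untrained mice. The endothelial marker Cdh5 was lower (-0.30), the clock output Tef was higher (0.34), and 0 of the muscle fibre, adipocyte, macrophage, fibroblast, erythrocyte, liver, cardiac, glucocorticoid and clock activator genes were called. The liver genes Alb, Apoa1 and Ttr summed to between 634 and 782 over all mice. The log2 ratio of 3′ over 5′ probe sets of Gapdh, a sign of RNA integrity, averaged 0.010 in TG trained, 0.015 in TG untrained, 0.008 in WT trained and 0.012 in WT untrained mice.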

How the data were processed

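The deposited values are linear intensities per probe set between 0 and 19078. They were probably scaled before deposit, since the array medians lie close together, between 156.7 and 174.9. The sources used here give neither the summary and scaling methods nor the reason for 1745 empty cells (0.3845%). Groups came from sample titles, with which the source names fit; a description that calls each sample transgenic and trained was not used.

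Here log2(intensity + 66.72, the 20th percentile) was fitted with limma 3.58.1 in R 4.3.3 (lmFit, eBayes with a variance trend, two-sided) with 4 group means. The 64 control probe sets and those with a mean below the 40th percentile were left out, which left 13576 for Benjamini-Hochberg adjustment in each of 7 contrasts. Empty cells were missing. The number of arrays limits the precision, and p-values cover the spread between these mice. The fit was tested on simulated data with independent noise for each probe set and array. Those data hold no effect shared by the probe sets of an array, so the test does not cover such effects. Of the 22626 probe sets, 20380 carry 1 symbol, 691 several and 1555 none; 20351 symbols matched RefSeq. All 6 members were in the promoter table.

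Named were all member probe sets (the brightest standing for its gene), Mdh2, up to 3 called genes in each direction of each related list, and the 3 genes most like each member. Members, lists and markers were chosen with earlier results of these data known. Alternatives covered scaling, the constant, filters, variance models, array weights, probe sets, RNA integrity and left-out mice. The ratio tests and their alternatives were chosen after seeing the data.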

Additional observations from a re-analysis of the deposited data

Results flagged for a closer look

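Among 44 tests of a group for a sample far from the others, 43 of 5 mice and 1 of the 4 mice with a value (Dixon's limit 0.829), 2 gave one, and chance gives about 1 in 20. In TG trained mice, TGT-133 had a Got1 intensity of 3553, against 4519 in the nearest of the other 4 mice, and this gap was 0.868 of the group's range, above Dixon's limit of 0.710 for 5 samples. The same array has 386 empty cells. In TG untrained mice, TGUT-146 had a Slc25a13 intensity of 148.9, against 127.8 in the nearest other mouse, a gap of 0.821 of the range. That probe set is dim.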

How the results depend on the processing

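With training averaged over genotypes, both Got2 probe sets, Slc25a11, the brightest Mdh1 probe set, Gpt and Gpt2 kept their direction and their call under every alternative that held them and in all 20 fits that left out 1 mouse. Of the 9 shuttle probe sets 5 were called, and between 4 and 6 with 1 mouse left out. There were 3 without the probe sets marked _x_at, _s_at or _a_at and 3 with 1 probe set per gene, settings that hold fewer of them. The second Mdh1 probe set lost its call with arrays centred on their medians (adjusted p = 0.0958) and with no filter (0.0686).

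With training in TG mice, where 0 were called, the count was 3 with quantile normalization, 2 with a constant of 1, 4 with a filter at the 60th percentile, 2 with no variance trend, 2 with robust variances, 6 with array weights, 3 without the 2 arrays with the most empty cells, 4 with the Gapdh 3′ over 5′ ratio as a covariate and between 0 and 4 with 1 mouse left out. With training in WT mice array weights gave 4. Between TG and WT mice, averaged over training, 1 was called without the 2 arrays with the most empty cells, and between 0 and 1 with 1 mouse left out; it was Got1. The cause of these moves was not tested. Over all probe sets, the training comparison called 2771 with array weights, 1292 with the Gapdh covariate, 448 with no filter, 409 with arrays centred on their medians and 409 without the 2 arrays, and 335 without the marked probe sets, against 678. With quantile normalization 490 were higher and 358 lower. The TG against WT comparison called 662 with array weights, 464 with the covariate, 399 without the 2 arrays, 111 with no filter, 102 with 1 probe set per gene and 89 without the marked ones, against 167; quantile normalization gave 113 higher and 120 lower. Training in TG mice, with 42 called, gave 2467 with array weights, 371 with the covariate, 148 with quantile normalization, 125 without the 2 arrays, 99 with a filter at the 60th percentile, 69 with a constant of 1, 67 with robust variances, 65 with no variance trend, 24 with 1 probe set per gene, 11 with centred arrays, 6 with no filter, 2 without the marked probe sets and 1 with the TG groups alone. With 1 mouse left out the counts ran from 279 to 1285 for training averaged over genotypes, from 2 to 764 for training in TG mice and from 79 to 525 for TG against WT mice averaged over training. They ran from 0 to 4 for training in WT mice, from 2 to 26 for TG against WT in untrained mice, and for TG against WT in trained mice from 2 up to a count that was 1.05% of the probe sets, without wtt-137.

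Of 1893 recomputed single values, 90 changed sign, and 0 of these belonged to a called value. With quantile normalization the TG minus WT value was 0.068 and 0.044 for the brighter and dimmer Got2 probe sets and 0.044 for Mdh2 averaged over training, 0.061 for Got2 in trained and 0.075 in untrained mice, and the interaction of Slc25a11 was 0.009. With array weights Got2 stood at 0.028 and 0.032 averaged, 0.028 in trained and 0.029 in untrained mice, Slc16a1 at 0.022 with training, Got1 at -0.084 with training in TG mice, and the interactions of Got1 and Slc25a11 at -0.07 and 0.049. Without the 2 arrays Got1 stood at 0.109 with training averaged over genotypes and 0.117 in WT mice, Got2 at 0.007 and 0 between TG and WT mice averaged and 0.017 in trained mice, and the interactions of Got2, Got1 and Slc25a11 at 0.02, -0.017 and 0.028. The dimmest Mdh1 probe set stood at -0.012 between TG and WT mice with centred arrays, -0.012 without the 2 arrays and -0.018 with the covariate.

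With 1 mouse left out, the training value of Got1 ran from -0.06 to 0.072 averaged over genotypes, from -0.088 to 0.127 in TG mice and from -0.147 to 0.117 in WT mice, and that of Slc25a13 in WT mice from -0.006 to 0.059. The TG minus WT value of Got2 ran from -0.018 to 0.017 and from -0.037 to 0.014 on its 2 probe sets, from -0.033 to 0.019 in trained and from -0.03 to 0.039 in untrained mice, that of the dimmest Mdh1 probe set from -0.018 to 0.018 and that of Slc25a13 in untrained mice from -0.017 to 0.047. The interaction ran from -0.091 to 0.173 for Got1, -0.043 to 0.026 for Got2, -0.002 to 0.088 for Mdh1 and -0.068 to 0.032 for Slc25a11. No paired analysis was possible because the groups share no mouse numbers. The 5 mice a group and, for Slc25a13, a signal close to the dim end limit what could be seen.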
